A study of Mus musculus with 12 samples.

Results

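The transcription factors *Foxf1*, *Foxf2*, *Hand1*, *Hand2*, *Barx1*, *Nkx2-3*, *Isl1*, *Tbx18*, and *Tshz3*, which pattern the mesenchyme of visceral organs, were examined in whole colon and urinary bladder of the mouse. They were taken by gene name from the deposited tables, in which each had 1 gene ID, and made up 9 of 54532 genes. RNA from colon and bladder of 9 male mice was sequenced in 12 libraries, each from 1 mouse, so that 3 libraries stood for every tissue and genotype. All mice carried floxed *Yap1* and *Wwtr1*, which encode the transcriptional co-activators YAP and TAZ, on a mixed background, and all were given tamoxifen in 5 daily injections of 1 mg. The labels give an age of 5 to 7 weeks and dissection on day 7 after the first injection. Y/T KO mice also carried *Myh11*-Cre/ERT2, a tamoxifen-inducible Cre recombinase driven by the promoter of smooth muscle myosin heavy chain, and Ctrl mice lacked it. This transgene sits on the Y chromosome, so only males could be used, and cells that do not use the *Myh11* promoter keep both genes in Y/T KO tissue. Mouse 788 (Ctrl) and mice 783 and 780 (Y/T KO) gave both tissues.

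Smooth muscle and connective tissue of the gut and bladder arise from mesenchyme that receives hedgehog ligands from the overlying epithelium, and forkhead factors of the Foxf family are among the genes that respond. Homeobox, T-box, and basic helix-loop-helix factors divide this mesenchyme along the body: *Barx1* marks the stomach, *Nkx2-3* the intestine, *Tbx18* and *Tshz3* the urinary tract, while *Hand1*, *Hand2*, and *Isl1* are also used by autonomic neurons. The questions put to the data were which of these factors adult colon and bladder still expressed, and whether their transcripts differed once muscle cells lost both co-activators.

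Values are TPM, StringTie's length-scaled measure of transcript abundance, in which a gene's reads are divided by its length and scaled to the same total in every library. The libraries held 2.80 to 3.94 gigabases of aligned sequence each. The labelled tissues matched their epithelia, since *Cdx2*, a factor of intestinal epithelium, was listed at 0 in all 6 bladders and *Upk2*, a urothelial plaque protein, was at 0 to 0.172 TPM in the 6 colons. Of the floxed genes, *Yap1* measured 45.8 to 54.9 TPM in Ctrl and 41.3 to 47.0 TPM in Y/T KO colons, which overlapped, and 98.6 to 110 TPM against 69.4 to 72.1 TPM in the bladders, which did not. The whole-gene values did not check the genotype labels firmly, since *Yap1* differed between Y/T KO and Ctrl by a log2 of -0.17 in the colon (adjusted p = 0.697) and -0.54 in the bladder (adjusted p = 0.0625, limma), and *Wwtr1* by 0.18 and 0.24 (adjusted p = 0.73 and 0.678). Tissue contrasts came from a model of all 12 libraries and genotype contrasts from the 6 libraries of a tissue, each after median-of-ratios rescaling, on the log2(TPM + 0.1) scale, with limma and Benjamini-Hochberg adjustment over all genes tested. The pseudocount of 0.1 understates the change of low genes. 3 mice against 3 can reach no less than p = 0.1 in an exact two-sided permutation test, so single genes were judged from the limma fit.

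In Ctrl colon, *Foxf1* had the highest TPM of the 9 factors, followed by *Nkx2-3*, *Foxf2*, *Hand2*, *Isl1*, *Hand1*, *Tshz3*, *Tbx18*, and *Barx1*. Only *Hand2* and *Isl1* overlapped among neighbors in that order, at 6.08 to 7.36 and 5.05 to 7.76 TPM. In Ctrl bladder the order was *Foxf1*, *Hand2*, *Tshz3*, *Foxf2*, *Isl1*, *Tbx18*, and *Hand1*, with *Barx1* and *Nkx2-3* listed at 0. *Foxf1*, *Hand2*, and *Tshz3* stood apart from one another there except that *Tshz3* overlapped *Foxf2*, which overlapped *Isl1*, and *Hand1* reached down to 0. Y/T KO tissue kept the Ctrl order in the bladder, and in the colon *Hand1* and *Isl1* changed places (4.52 to 5.35 against 3.01 to 3.65 TPM).

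**Figure D1:**
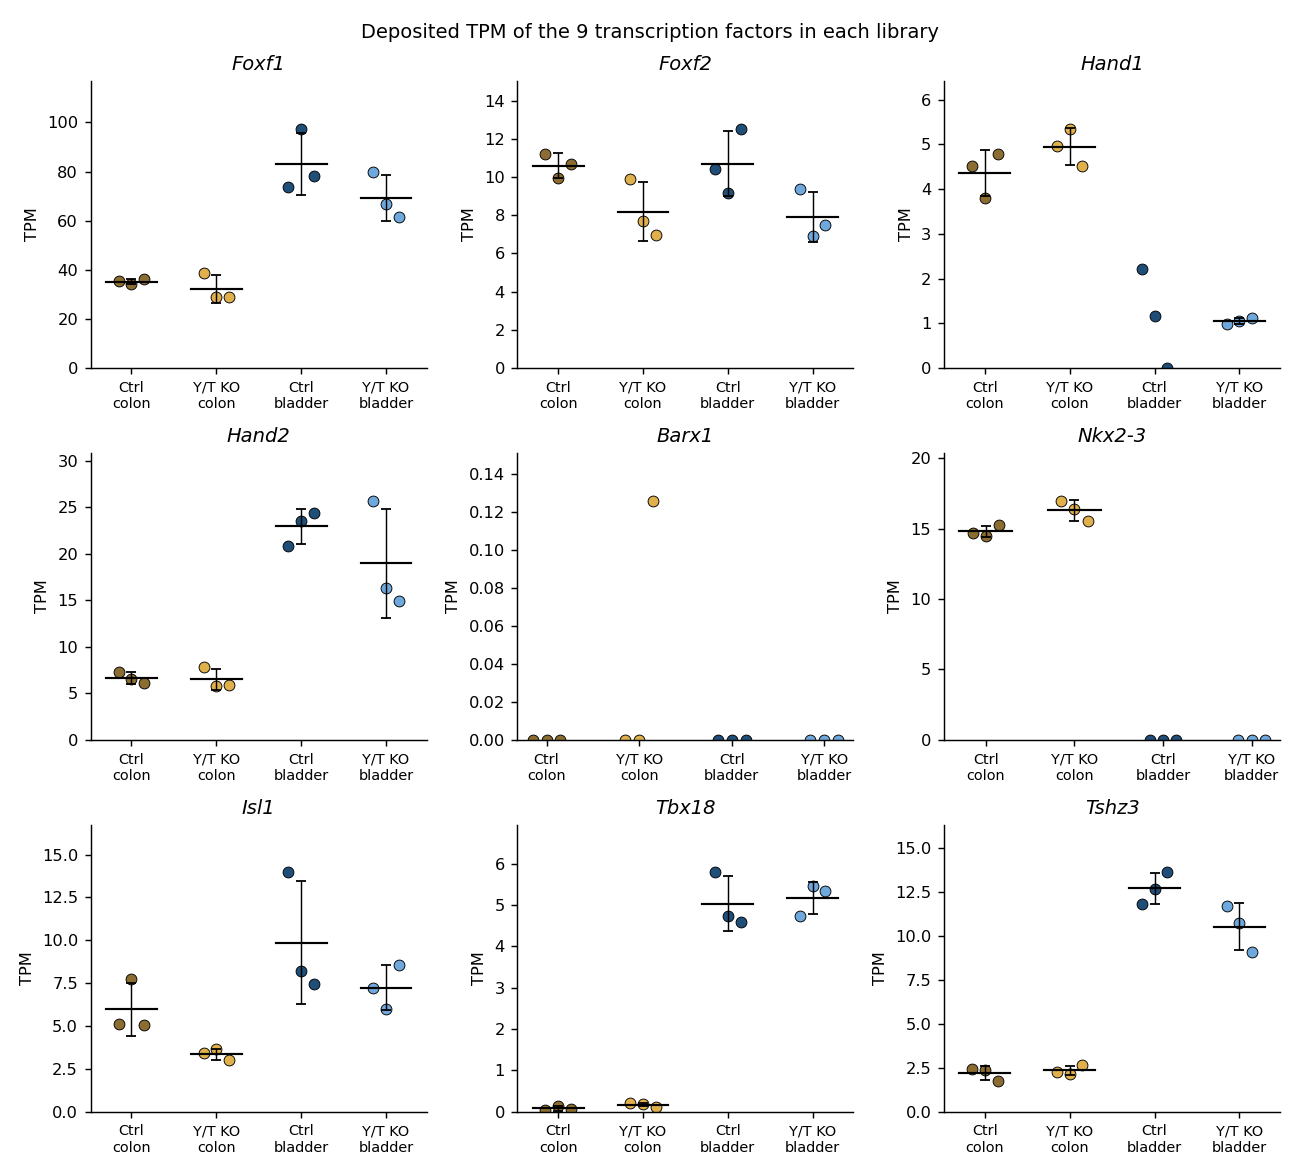
Deposited TPM (vertical axes, each starting at 0) of the 9 factors in each of the 12 libraries, grouped by tissue and genotype; lines and bars are the mean and SD of 3 libraries, left out where a library is listed at 0. *Nkx2-3* was detected in colons alone at 14.5 to 17 TPM, *Tbx18* sat near 0 in the colons and at 4.58 to 5.79 TPM in the bladders, and *Hand1* fell to 0 in 1 Ctrl bladder.

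*Nkx2-3*, an NK homeobox factor of intestinal mesenchyme and spleen (chr19:43612325-43615892, plus strand, GRCm38), was detected in the colon alone. It measured 14.7, 14.5, and 15.3 TPM in Ctrl colons 788, 786, and 787 and 17, 16.4, and 15.5 TPM in Y/T KO colons 759, 783, and 780. It was listed at 0 in all 6 bladders, so the tissues did not overlap in either genotype, as was so for 58.6% of all genes tested in Ctrl and 59.2% in Y/T KO mice, and no fold is given. It passed the filter on low values through the colons alone and so had to differ, and its values are given as a description, with no test. *Barx1*, the homeobox factor of stomach mesenchyme (chr13:48662998-48666507, plus strand), was listed at 0 in 11 of 12 libraries, reached 0.126 TPM in Y/T KO colon 780, and did not enter any test.

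*Tbx18*, a T-box factor of the mesenchyme around the ureter (chr9:87702800-87731260, minus strand), showed the opposite pattern. Ctrl bladders 784, 785, and 788 measured 5.79, 4.74, and 4.58 TPM and Y/T KO bladders 782, 783, and 780 measured 4.73, 5.45, and 5.34 TPM. The 3 Ctrl colons held 0.036, 0.142, and 0.069 TPM and the 3 Y/T KO colons 0.208, 0.183, and 0.123 TPM. Every bladder therefore lay above every colon, with a log2 difference (colon minus bladder) of -4.67 ± 0.29 in Ctrl and -4.07 ± 0.29 in Y/T KO mice (SE, n = 3 per tissue). *Tbx18* passed the filter through the bladders alone and so had to differ, which leaves no test here, and the size of the difference rests on the pseudocount (-2.35 in Ctrl mice with a pseudocount of 1 TPM).

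*Tshz3*, a zinc finger factor needed for smooth muscle to form along the ureter (chr7:36698118-36773553, plus strand), was also a bladder transcript but not absent from the colon. It measured 11.8, 12.7, and 13.6 TPM in Ctrl bladders 784, 785, and 788 and 2.46, 2.39, and 1.72 TPM in Ctrl colons 788, 786, and 787. Y/T KO bladders 782, 783, and 780 held 11.7, 10.8, and 9.08 TPM and Y/T KO colons 759, 783, and 780 held 2.26, 2.14, and 2.66 TPM. The tissues did not overlap, and the log2 difference was -2.24 ± 0.18 in Ctrl (adjusted p = 1.36e-06) and -1.84 ± 0.18 in Y/T KO mice (SE, n = 3 per tissue; adjusted p = 6.6e-06, limma).

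The stretch before the start of *Nkx2-3* is shown with that of *Tbx18* and *Tshz3*, as those of 1 factor detected in the colon alone and of both urinary tract factors. Each line gives the 250 bases upstream of the RefSeq start on GRCm38.p6 in the direction of transcription, at chr19:43612075-43612324 (plus strand), chr9:87731261-87731510 (minus strand), and chr7:36697868-36698117 (plus strand). Capitals mark CG dinucleotides in the first and second line, and in the line of *Tshz3* the MCAT element CATTCC, the core bound by TEAD proteins, the DNA-binding partners of YAP and TAZ.
Nkx2-3: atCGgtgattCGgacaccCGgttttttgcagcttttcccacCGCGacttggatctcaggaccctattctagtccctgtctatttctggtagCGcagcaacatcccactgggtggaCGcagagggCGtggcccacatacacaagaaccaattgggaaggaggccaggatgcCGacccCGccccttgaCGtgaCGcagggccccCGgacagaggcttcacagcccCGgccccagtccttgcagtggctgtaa
Tbx18: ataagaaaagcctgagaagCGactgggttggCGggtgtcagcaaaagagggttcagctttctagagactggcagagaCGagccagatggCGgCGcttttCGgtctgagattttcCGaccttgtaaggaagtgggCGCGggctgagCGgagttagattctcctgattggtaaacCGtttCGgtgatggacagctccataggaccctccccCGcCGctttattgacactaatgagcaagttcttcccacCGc
Tshz3: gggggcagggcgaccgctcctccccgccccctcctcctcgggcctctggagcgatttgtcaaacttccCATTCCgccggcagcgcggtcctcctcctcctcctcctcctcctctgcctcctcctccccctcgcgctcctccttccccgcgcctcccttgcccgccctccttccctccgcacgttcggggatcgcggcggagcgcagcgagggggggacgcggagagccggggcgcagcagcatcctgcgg

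The stretches of *Nkx2-3* and *Tbx18* held 14 and 15 CG dinucleotides. Over the full windows of 250 bases before to 50 after the start, read here for 7 of the 9 factors (not for *Foxf1* and *Hand1*), the count ran from 15 to 50 with a median of 27, against a median of 7 over 32841 promoters of the same length. *Barx1*, at or near 0 TPM in both organs, had the count of 50, and *Nkx2-3* and *Tbx18* had 15 each. CATTCC, searched on both strands, occurred in the window of *Tshz3* alone among the 7, starting 182 bases before the start, and in 14.7% of all promoters. The GLI site GACCACCCA (0.253% of all promoters), the T-box site AGGTGTGA (1.28%), and the CArG box (1.63%), the motif of serum response factor, were not found in the 7 windows. These matches describe the letters of the windows and not binding.

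*Foxf1* and *Hand2* were expressed in both organs and higher in the bladder. *Foxf1*, a forkhead factor induced by hedgehog signals (chr8:121084386-121088144, plus strand), measured 35.4, 34.2, and 36.1 TPM in Ctrl colons 788, 786, and 787 and 73.7, 97.4, and 78.0 TPM in Ctrl bladders 784, 785, and 788. Y/T KO colons 759, 783, and 780 held 38.7, 28.8, and 29.1 TPM and Y/T KO bladders 782, 783, and 780 held 79.7, 66.9, and 61.4 TPM. No colon reached the lowest bladder, and the log2 difference was -0.96 ± 0.16 in Ctrl (adjusted p = 0.000313) and -0.84 ± 0.16 in Y/T KO mice (SE, n = 3 per tissue; adjusted p = 0.000865, limma).

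*Hand2*, a basic helix-loop-helix factor of heart, limb, and autonomic neurons (chr8:57320983-57324633, plus strand), measured 7.36, 6.58, and 6.08 TPM in Ctrl colons and 20.9, 23.5, and 24.4 TPM in Ctrl bladders, in the library order used above. Y/T KO mice had 7.84, 5.84, and 5.90 TPM in the colons and 25.7, 16.3, and 15.0 TPM in the bladders. Again the organs did not overlap, and the log2 difference was -1.51 ± 0.20 in Ctrl (adjusted p = 6.7e-05) and -1.23 ± 0.20 in Y/T KO mice (SE, n = 3 per tissue; adjusted p = 0.000317, limma).

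*Hand1*, the close relative of *Hand2* (chr11:57828705-57832818, minus strand), was higher in the colon instead. Ctrl colons 788, 786, and 787 measured 4.51, 3.80, and 4.78 TPM and Y/T KO colons 759, 783, and 780 measured 4.97, 5.35, and 4.52 TPM. Ctrl bladders 784, 785, and 788 measured 2.21, 1.17, and 0 TPM, and Y/T KO bladders 782, 783, and 780 measured 0.996, 1.05, and 1.13 TPM. The colons lay above all bladders, with a log2 difference of 2.93 ± 0.85 in Ctrl (adjusted p = 0.0134) and 2.38 ± 0.85 in Y/T KO mice (SE, n = 3 per tissue; adjusted p = 0.0353, limma). Without Ctrl bladder 788 the Ctrl difference was 1.60 (adjusted p = 0.00124). The Y/T KO call was lost whenever any of the 6 Y/T KO libraries was left out (adjusted p = 0.0693 to 0.0807), although the difference stayed at 2.319 to 2.444, and with TPM as deposited (2.12, adjusted p = 0.0596), while without Ctrl bladder 788 it was 3.34e-05. TPM of *Hand2* was 1.09 to 1.73 times that of *Hand1* in the 6 colons and 9.47 to 25.8 times in the 5 bladders where *Hand1* was above 0.

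*Foxf2*, the paralog of *Foxf1* (chr13:31625816-31631403, plus strand), did not separate the tissues. It measured 11.2, 9.93, and 10.7 TPM in Ctrl colons 788, 786, and 787 and 10.4, 9.15, and 12.5 TPM in Ctrl bladders 784, 785, and 788. The Y/T KO libraries held 9.91, 7.67, and 6.94 TPM in the colon and 9.39, 6.91, and 7.47 TPM in the bladder. Colon and bladder overlapped in both genotypes, and the log2 difference was 0.26 ± 0.18 in Ctrl (adjusted p = 0.272), where it was -0.004 with TPM as deposited, and 0.31 ± 0.18 in Y/T KO mice (SE, n = 3 per tissue; adjusted p = 0.173, limma). The ratio of *Foxf1* to *Foxf2* in TPM was accordingly 3.16 to 4.2 in the 6 colons and 6.23 to 10.6 in the 6 bladders.

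*Isl1*, a LIM homeobox factor of cardiac progenitors, neurons, and endocrine cells (chr13:116298281-116309689, minus strand), was intermediate. It measured 5.09, 7.76, and 5.05 TPM in Ctrl colons 788, 786, and 787 and 14.0, 8.22, and 7.43 TPM in Ctrl bladders 784, 785, and 788, and these tissues overlapped. Y/T KO colons 759, 783, and 780 held 3.40, 3.65, and 3.01 TPM and Y/T KO bladders 782, 783, and 780 held 7.20, 5.98, and 8.56 TPM, with no overlap. The log2 difference was -0.43 ± 0.26 in Ctrl (adjusted p = 0.185, and 0.0485 with TPM as deposited) and -0.81 ± 0.26 in Y/T KO mice (SE, n = 3 per tissue; adjusted p = 0.0201, limma). The Y/T KO call was lost without colon 780 (adjusted p = 0.0619) or bladder 780 (adjusted p = 0.0741).

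**Figure D2:**
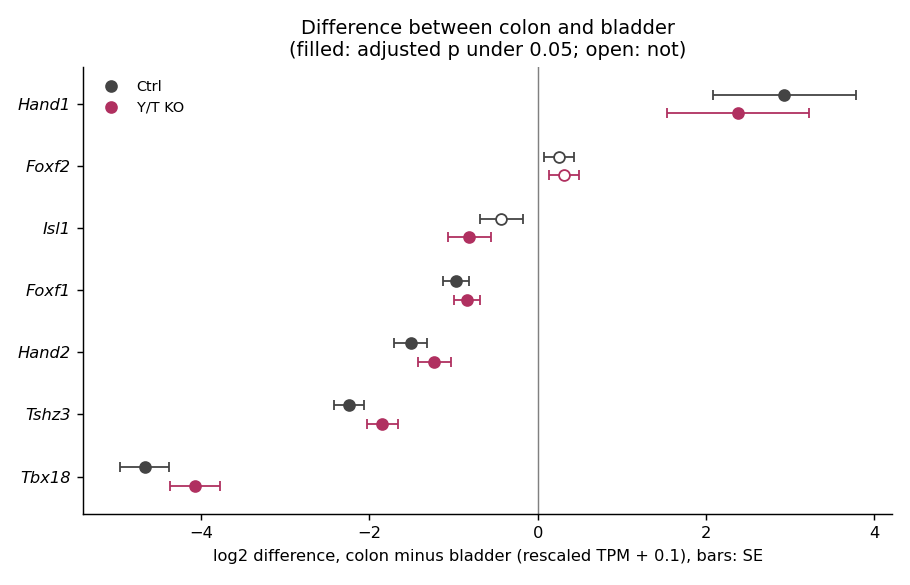
Log2 difference of colon minus bladder for 7 factors (horizontal axis, rescaled TPM + 0.1) in Ctrl and Y/T KO mice, with the SE as bars and filled points at an adjusted p under 0.05; *Nkx2-3* is left out because its bladder values are listed at 0. *Hand1* lies to the right, *Foxf1*, *Hand2*, *Tshz3*, and *Tbx18* to the left in both genotypes, *Foxf2* is open in both, and *Isl1* is open in Ctrl. *Tbx18* passed the filter through the bladders alone and had to differ.

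Of the 8 factors tested, 6 passed between Ctrl tissues, against 50.4% of all 19773 genes tested. They were 2 higher and 4 lower in the colon, beside 25.1% and 25.3% of all genes. Between Y/T KO tissues 7 passed, against 51.3% of all genes, with 2 higher and 5 lower beside 25.8% and 25.6%. *Nkx2-3* and *Tbx18* entered the test through a single tissue and had to differ, so these counts lend no support to a tissue difference of the set. The median of all genes was 0.014 in Ctrl and 0.005 in Y/T KO mice, and TPM as deposited moved it to -0.237 and -0.258. On that scale the higher and lower calls over all genes, 4959 and 5004 in Ctrl and 5093 and 5060 in Y/T KO mice, became 3510 and 6312 and 3634 and 6700.

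Bladder libraries also held more muscle and connective tissue transcripts than colon libraries. The summed TPM of 9 smooth muscle markers, among them *Myh11* and *Acta2*, was 7594 to 8322 in Ctrl colon, 4972 to 5846 in Y/T KO colon, 35430 to 46150 in Ctrl bladder, and 16990 to 31110 in Y/T KO bladder, and all 9 were called lower in the colon in both genotypes. The sum of 8 fibroblast and PDGFRA cell markers was 1974 to 2712 in the 6 colons and 8142 to 10240 in the 6 bladders. In whole tissue, more cells of a type and more RNA per cell cannot be told apart. The part of tissue composition in the differences above was not tested, and the levels relative to these sums are therefore given beside them as a description.

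Per 1000 TPM of smooth muscle markers, *Foxf1* measured 4.25 to 4.5 TPM in Ctrl colon and 1.83 to 2.11 TPM in Ctrl bladder, and *Hand2* measured 0.746 to 0.884 and 0.51 to 0.589 TPM. Both factors were thus higher in the colon on this scale, the reverse of their TPM, and did not overlap between tissues in either genotype, since in Y/T KO mice *Foxf1* measured 4.92 to 7.37 in the colon and 2.56 to 3.62 in the bladder and *Hand2* 0.999 to 1.49 and 0.787 to 0.881. *Tshz3* overlapped between tissues relative to smooth muscle markers (0.211 to 0.315 in Ctrl colon and 0.275 to 0.334 in Ctrl bladder). *Tbx18* kept its direction, at 0.00432 to 0.0186 in Ctrl colon and 0.103 to 0.163 in Ctrl bladder, as did *Hand1*, at 0.5 to 0.586 and 0 to 0.0623. *Foxf2*, which did not separate the tissues in TPM, measured 1.31 to 1.35 in Ctrl colon and 0.198 to 0.295 in Ctrl bladder per 1000 TPM of smooth muscle markers. Relative to the fibroblast markers, *Foxf1* measured 13.1 to 18.3 in Ctrl colon and 7.85 to 10.5 in Ctrl bladder, *Hand2* overlapped, and *Tshz3* was at 0.873 to 1.15 in Ctrl colon and 1.37 to 1.41 in Ctrl bladder, but overlapped in Y/T KO mice (0.79 to 1.13 and 1.12 to 1.23). All 9 smooth muscle markers had lower values in Y/T KO than in Ctrl tissue of each organ, with 0 called (limma; 6 in the colon and 5 in the bladder at an unadjusted p under 0.05), and every ratio to their sum carries that difference.

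**Figure D3:**
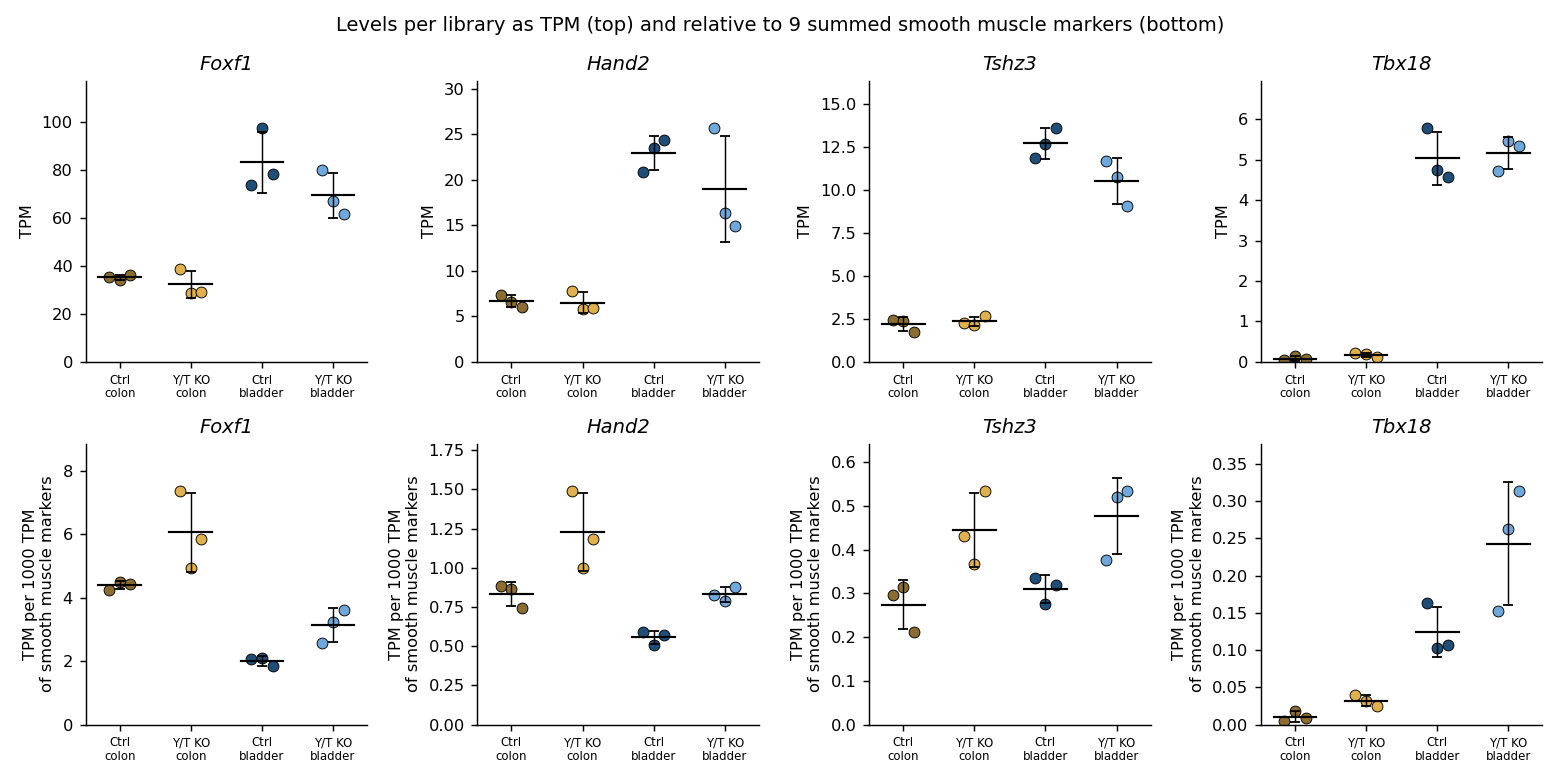
*Foxf1*, *Hand2*, *Tshz3*, and *Tbx18* in each library as deposited TPM (top row) and as TPM per 1000 TPM of 9 summed smooth muscle markers (bottom row), with the mean and SD of 3 libraries and axes starting at 0. *Foxf1* goes from higher in the bladder to higher in the colon, from 1.83 to 2.11 in Ctrl bladder to 4.25 to 4.5 in Ctrl colon on the lower axis, whereas *Tbx18* stays higher in the bladder on both.

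The highest and the lowest *Hand1* value among the bladders fell in the libraries with the most and the least of several nerve transcripts. The genes *Ret*, the receptor of GDNF in enteric and autonomic neurons, and *Th*, the rate-limiting enzyme of catecholamine synthesis, were lowest in Ctrl bladder 788, at 1.26 and 0.197 TPM, where *Hand1* was listed at 0. They were highest in Ctrl bladder 784, at 14.6 and 10.8 TPM, where *Hand1* was highest at 2.21 TPM. The other 4 bladders lay between, with *Ret* at 7.47 to 9.28, *Th* at 2.96 to 5.33, and *Hand1* at 0.996 to 1.17 TPM, so the relation rests on the libraries at both ends. Of 14 neuron markers, 14 had their lowest bladder value in Ctrl bladder 788 and 13 their highest in Ctrl bladder 784. In the colons, where *Hand1* was higher, *Ret* was at 1.54 to 3.64 TPM and *Th* at 0 to 0.227 TPM. Pearson r of log2 levels was taken between *Hand1* and the 12 markers with a mean of at least 0.5 TPM in an organ. Its median was -0.156 over the colons (-0.643 to 0.825). Over the bladders, with the libraries at both ends included, it was 0.964 (0.493 to 0.996). *Hand2* did not follow the same order in the bladder, since its highest Ctrl value, 24.4 TPM, was in Ctrl bladder 788, and *Isl1* was highest in Ctrl bladder 784 (14.0 TPM) and lowest in Y/T KO bladder 783 (5.98 TPM). Summed neuron markers were 372.3 to 644.1 TPM in Ctrl bladder and 553.5 to 673.3 TPM in Y/T KO bladder. Most of each sum was *Uchl1*, at 333 to 389 TPM in Ctrl and 428 to 546 TPM in Y/T KO bladder. *Uchl1* was the 1 marker highest in Y/T KO bladder 782 and not in Ctrl bladder 784, so the sums do not stand for the other markers. The part of nerve cells in the *Hand1* values was not tested.

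**Figure D4:**
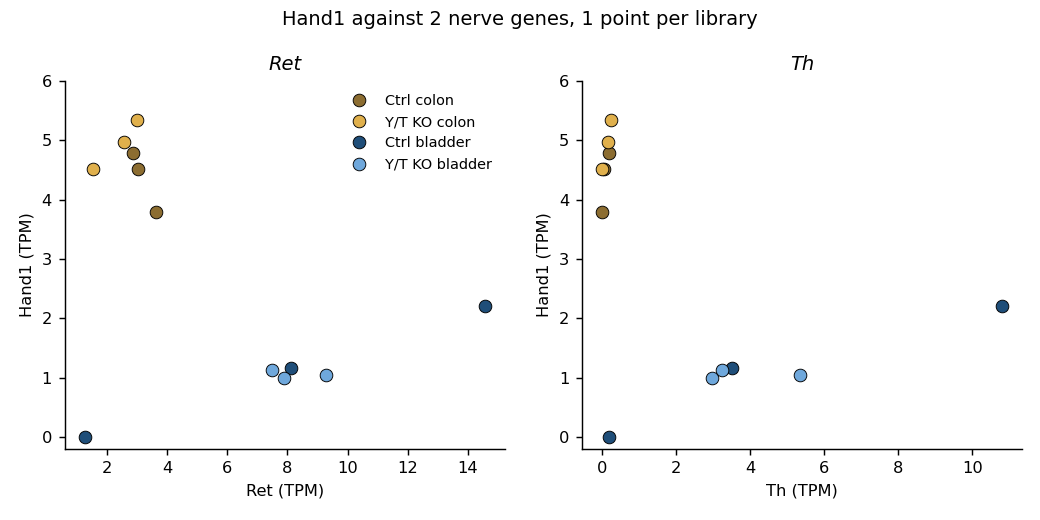
TPM of *Hand1* (vertical axis) against TPM of *Ret* and *Th* (horizontal axes), with 1 point for each of the 12 libraries. Among the bladders, Ctrl bladder 788 sits at the lower left with *Hand1* at 0 and Ctrl bladder 784 at the right with 2.21 TPM, while all colons lie at 3.80 TPM or more.

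Between Y/T KO and Ctrl mice, no factor passed the test in either organ. In the colon, 0 of 7 factors tested were called, against 0.137% of all 17500 genes tested (24 genes), and 1 of the 7, *Isl1*, had an unadjusted p under 0.05, as did 9.73% of all genes. In the bladder, 0 of 7 were called, against 0.302% of all 18237 genes (55 genes), and 1, *Foxf2*, had an unadjusted p under 0.05, as did 14.8% of all genes. *Tbx18* did not pass the filter in the colon, nor *Nkx2-3* in the bladder.

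The colon difference of *Isl1* was the largest of these in the colon. Each Y/T KO colon, at 3.01 to 3.65 TPM, lay below each Ctrl colon, at 5.05 to 7.76 TPM, a log2 difference (Y/T KO minus Ctrl) of -0.75 ± 0.22 (SE, n = 3 per genotype; adjusted p = 0.386, limma). Groups did not overlap for 16.1% of all genes in the colon. In the bladder *Isl1* overlapped, at -0.40 ± 0.28 (adjusted p = 0.557). Neurons and endocrine cells also use *Isl1*, and 8 of 12 neuron markers tested were lower in Y/T KO colon with a median log2 difference of -0.50 and 0 called, while their sum overlapped (170.5 to 212.6 TPM in Ctrl and 159.3 to 247.8 in Y/T KO). The other 4 were higher, and the median over all genes was 0.006. Of the 12, 2 had an unadjusted p under 0.05 (limma), both lower, as did 9.73% of all genes in either direction. Enteroendocrine markers summed to 517.3 to 717.7 TPM in Ctrl and 626.3 to 971.9 in Y/T KO colon. Pancreatic acinar markers were present in the Ctrl colon libraries at 7.56 to 137 TPM and at 0.344 to 1.08 TPM in Y/T KO colons, and the islet hormone genes *Ins1* and *Ins2* were listed at 0 in all colons. The part of these cells in the *Isl1* difference was not tested.

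*Foxf2* had the same sign in both organs, at -0.35 ± 0.20 in the colon (adjusted p = 0.612) and -0.43 ± 0.17 in the bladder (SE, n = 3 per genotype; adjusted p = 0.305, limma), where the genotypes did not overlap after rescaling, as for 22% of all genes. *Foxf1* differed by -0.11 ± 0.17 in the colon (adjusted p = 0.852) and -0.26 ± 0.14 in the bladder (adjusted p = 0.44).

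*Hand2* differed by -0.005 ± 0.21 in the colon (adjusted p = 0.996; 0.027 with FPKM as deposited) and -0.31 ± 0.20 in the bladder (adjusted p = 0.504), where Y/T KO bladder 782, at 25.7 TPM, was above every Ctrl bladder and the other two Y/T KO bladders were below. *Hand1* differed by 0.21 ± 0.22 in the colon (adjusted p = 0.761) and 0.78 ± 1.14 in the bladder (adjusted p = 0.784), a value set by Ctrl bladder 788, without which it was -0.59. *Nkx2-3* was slightly higher in each Y/T KO colon than in each Ctrl colon, with a log2 difference of 0.17 ± 0.15 (adjusted p = 0.725, limma). Such a lack of overlap was seen for 16.1% of all genes in the colon.

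Neither urinary tract factor was called between genotypes. *Tbx18* differed between bladders by 0.04 ± 0.19 (adjusted p = 0.936) and *Tshz3* by -0.28 ± 0.14 (SE, n = 3 per genotype, adjusted p = 0.396, limma). For *Tshz3* each Y/T KO bladder lay below each Ctrl bladder, and groups did not overlap for 22% of all genes in the bladder. In the colon *Tshz3* differed by 0.15 ± 0.25 (adjusted p = 0.868). The interaction of tissue and genotype, which asks whether the Y/T KO difference itself differed between colon and bladder, was called for 0 of the 8 factors against 0.0607% of all genes, with 0 at an unadjusted p under 0.05, as against 11.9% of all genes. The interaction values ran from -0.55 for *Hand1* to 0.60 for *Tbx18*, with adjusted p from 0.555 to 0.943 (limma).

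**Figure D5:**
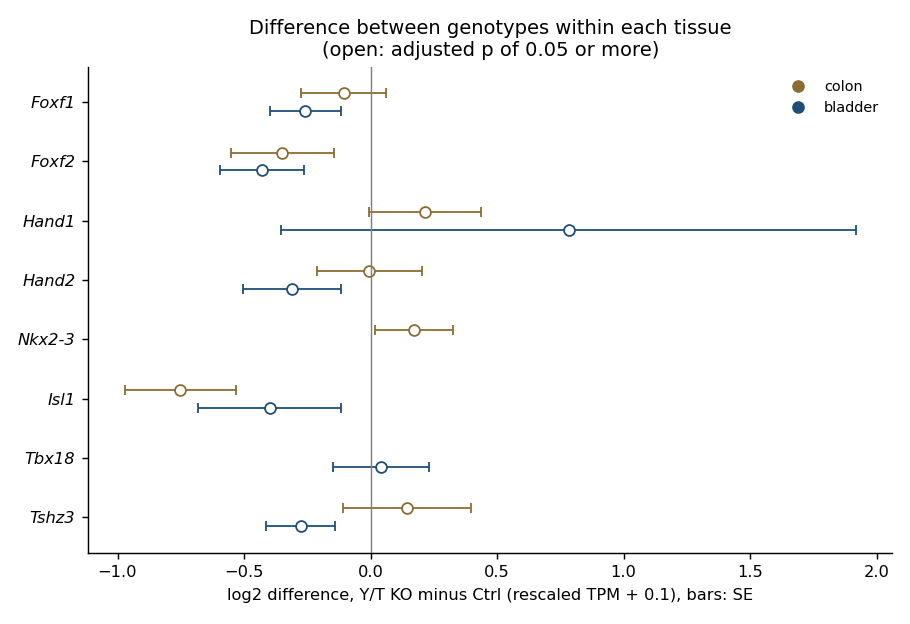
Log2 difference of Y/T KO minus Ctrl (horizontal axis, rescaled TPM + 0.1) in colon and bladder for the 8 factors that could be tested in a tissue, with the SE as bars. All points are open because every adjusted p was 0.05 or more, *Isl1* in the colon lies farthest left at -0.75, and *Hand1* in the bladder has the widest error, 1.14.

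Genes close to the factors were read in the same contrasts. Of 20 annotated genes within 10 kb, 8 reached a mean of 0.5 TPM in a group, and *Hand1*, *Barx1*, and *Isl1* had no neighbor at that distance. *Gm20467*, on the opposite strand with its start 1700 bases from that of *Nkx2-3*, followed *Nkx2-3* in being listed at 0 in all 6 bladders and detected in all colons, with 4.43 to 6.07 TPM in Ctrl colons against 2.98 to 3.65 TPM in those of Y/T KO mice. *Gm20467* passed the filter through the colons alone and so had to differ between organs. The transcript *AV026068*, which overlaps *Hand2* by 3251 bases on the opposite strand, had a log2 difference between colon and bladder of -1.32 ± 0.23 in Ctrl (adjusted p = 0.000568) and -1.53 ± 0.23 in Y/T KO mice (adjusted p = 0.000191, limma). *Gm34030* and *5033428I22Rik*, beyond the end of *Hand2*, were also lower in the colon, at -2.11 and -1.89 in Ctrl (adjusted p = 0.00122 and 0.00105) and -2.27 and -1.76 in Y/T KO mice (adjusted p = 0.000727 and 0.00165, limma). Over all genes, 25.3% were called lower in Ctrl colon and 25.6% in Y/T KO colon. The library kit kept strand, but the strand setting of the authors' quantification is not given in the sources used here, so reads of *Hand2* and *AV026068* may not be fully separated.

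*Fendrr*, a long noncoding RNA whose start lies 1276 bases from that of *Foxf1* on the opposite strand, was spread widely among the bladders. It measured 20.5, 25.6, and 17.4 TPM in Ctrl colons and 30.8, 34.3, and 58.9 TPM in Ctrl bladders (log2 difference -0.66 ± 0.42, adjusted p = 0.222). In Y/T KO mice the values were 16.0, 13.3, and 22.1 TPM in the colons and 94.8, 22.1, and 53.8 TPM in the bladders (-1.25 ± 0.42, adjusted p = 0.0285, limma), where the highest colon and the lowest bladder overlapped. *Mthfsd*, on the other side of *Foxf1*, was lower in the colon by smaller amounts, -0.78 in Ctrl (adjusted p = 0.000874) and -0.38 in Y/T KO mice (adjusted p = 0.0452). *1700018A04Rik*, which starts 24 bases from *Foxf2* on the opposite strand, was lower in Ctrl colon (-1.14, adjusted p = 0.0325) but missed the threshold in Y/T KO mice (-0.97, adjusted p = 0.0628), and *E230020A03Rik*, which lies within *Tshz3* on the same strand so that their reads may not be fully separated, passed in neither (adjusted p = 0.135 and 0.685). None of the neighbors that could be tested was called between genotypes by limma, and *Mthfsd* (0.43) and *Gm20467* (-0.50), both in the colon, were alone in reaching an unadjusted p below 0.05.

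The factors were also set beside 64 other mesenchymal transcription factors, of which 58 were tested between tissues. In Ctrl mice 3 were called higher and 39 called lower in the colon, with a median log2 difference of -1.50 against 0.014 over all genes. In Y/T KO mice 3 were called higher and 43 called lower, with a median of -1.36 against 0.005. Of all genes, 25.1% were called higher and 25.3% called lower in Ctrl and 25.8% and 25.6% in Y/T KO mice. The 9 smooth muscle markers, all called lower in the colon, had medians of -2.15 in Ctrl and -1.84 in Y/T KO mice. The 8 fibroblast and PDGFRA cell markers, 7 of them called lower in each genotype, had medians of -1.59 and -1.35. The part of tissue composition in this list and in the hedgehog list below was not tested. Among those lower in the colon, *Tbx4*, a T-box factor of hindlimb and lung mesenchyme, was at 14.6 to 22.7 TPM in the bladders and 0.088 to 0.334 TPM in the colons. *Gata5* and *Gata2*, zinc finger factors, had log2 differences of -4.73 and -4.25 in Ctrl mice (both called). *Tbx5* and *Tbx20* were at 7.35 to 13.3 and 6.65 to 15.9 TPM in the bladders and at 0 to 0.063 and 0 to 0.014 TPM in the colons. *Tbx4*, *Tbx5*, and *Tbx20* passed the filter through the bladders alone, so that they too had to differ. Between genotypes none of these factors was called (limma), in the colon with 1 higher and 1 lower of 46 tested at an unadjusted p under 0.05 (9.73% of all genes), and in the bladder with 1 higher and 5 lower of 57 (14.8% of all genes).

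Among 17 hedgehog pathway genes, the main ligand differed between the organs. *Ihh* was at 45.5 to 75.1 TPM in the colons and 0 to 0.082 TPM in the bladders, whereas *Shh* was at 36.6 to 48.0 TPM in the bladders and 0 to 0.251 TPM in the colons, so that each passed the filter through 1 organ and had to differ. In each genotype 2 of the 17 were called higher and 12 lower in the colon, beside 25.1% and 25.3% of all genes in Ctrl and 25.8% and 25.6% in Y/T KO mice, with a median log2 difference of -0.98 in Ctrl and -1.16 in Y/T KO mice against 0.014 and 0.005 over all genes. The lower genes included the effectors *Gli1* (-1.46 in Ctrl, adjusted p = 2.63e-05) and *Gli3* (-1.63, adjusted p = 9.38e-05), the receptor *Ptch1* (-0.95, adjusted p = 0.0106), and the co-receptor *Gas1* (-2.13, adjusted p = 9.57e-06, limma), the same direction as *Foxf1* and the opposite of *Hand1*. *Gli1*, *Gli2*, and *Gli3* also belong to the list of 64. None was called between genotypes (limma; at an unadjusted p under 0.05, 2 of 15 were lower in the colon, beside 9.73% of all genes, and 1 of 16 higher and 2 lower in the bladder, beside 14.8%), where *Hhip*, a hedgehog-binding inhibitor, came closest in the bladder (-0.71 ± 0.11, adjusted p = 0.0812).

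Of 15 signals and target genes of these factors that could be tested, 4 were called higher and 6 lower in Ctrl colon. In Y/T KO colon 2 were called higher and 6 lower. Each count is against the bladder of the same genotype, where 50.4% and 51.3% of all genes were called. The median log2 difference of these 15 was -0.34 in Ctrl and -0.26 in Y/T KO mice. *Madcam1*, the addressin of gut endothelium that requires *Nkx2-3*, followed it in being listed at 0 in all bladders. It is among the genes counted as higher in both genotypes, but passed the filter through the colons alone and so had to differ. Ctrl colons 788, 786, and 787 held 1.59, 1.58, and 2.56 TPM and Y/T KO colons 759, 783, and 780 held 5.40, 5.17, and 5.46 TPM, a log2 difference of 1.51 ± 0.28 that was not called (SE, n = 3 per genotype; adjusted p = 0.143, limma), beside 0.17 for *Nkx2-3*. *Myocd*, the smooth muscle co-activator whose action *Tshz3* modulates, followed *Tshz3* between tissues (-3.79 in Ctrl and -3.09 in Y/T KO mice, both called) and measured 34.8 to 44.2 TPM in Ctrl bladders against 17.3 to 22.8 TPM in those of Y/T KO mice, a log2 difference of -1.05 ± 0.14 (adjusted p = 0.0573), beside -0.28 for *Tshz3*. *Wnt5a*, a mesenchymal Wnt ligand, was lower in the colon (-2.82 in Ctrl and -1.50 in Y/T KO mice, both called). *Wnt5a* was higher in each Y/T KO colon than in each Ctrl colon (10.9 to 17.6 against 6.01 to 6.41 TPM). The log2 difference between these colons was 1.08 ± 0.22 (adjusted p = 0.22, limma), and groups did not overlap for 16.1% of all genes there. *Sox9* was higher in the colon in both genotypes (3.80 and 3.86) and *Aldh1a2*, which makes retinoic acid, lower (-2.47 and -1.69, all called). In this list 5 genes were higher and 2 lower in Y/T KO colon at an unadjusted p under 0.05, of 15 tested (9.73% of all genes), and 1 higher and 2 lower of 14 in Y/T KO bladder (14.8% of all genes), but none was called.

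The 3 genes whose log2 level went most closely with each factor over the 12 libraries are given as a description, since the points share the split between organs. For *Nkx2-3* they were *Pla2g10*, *Glod5*, and *Pklr* (Pearson r = 0.9998 each), for *Tbx18* *Rcn1*, *Tbx3os2*, and *Grhl1* (0.994 to 0.995), for *Tshz3* *Ehd4*, *Vwa7*, and *Fbxo41* (0.995 to 0.997), for *Hand2* *Inpp5a*, *5930412G12Rik*, and *Rexo2* (0.985 to 0.986), and for *Foxf1* *Calhm5*, *Clu*, and *Aldh1a2* (0.97 to 0.976). *Hand1* went with *Resp18* and *Scg2*, both of neuroendocrine secretory granules, and with *Tm4sf4* (0.98 to 0.992). These values also lean on Ctrl bladder 788, where *Hand1*, *Resp18*, and *Tm4sf4* were listed at 0 and *Scg2* was lowest at 0.85 TPM. *Foxf2* and *Isl1*, which were not called between Ctrl organs, had lower best values, 0.918 to 0.928 for *Sppl3*, *Gm6916*, and *Gm15610* and 0.901 to 0.923 for *Tub*, *Dlgap1*, and *Lrch3*.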

How the data were processed

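The labels placed 12 libraries in 4 groups of 3, by organ (colon or bladder) and genotype (Ctrl or Y/T KO). Stranded TruSeq libraries of polyadenylated RNA were sequenced on a NextSeq 500. Per the labels, the submitters' processing notes name HISAT2, StringTie, DESeq2, and the build GRCm38, with versions not given in the sources used here. The authors deposited StringTie tables for each library: TPM values, FPKM values, and the average read coverage (the signal over each base of a gene). TPM holds no read counts, so the count test of the study was replaced. With that test the paper lists *Acta2*, *Actg2*, and *Tagln* as lower in both organs of Y/T KO mice, none of which was called here. The deposited TPM was summed by gene ID, divided by median-of-ratios size factors, kept at 0.5 TPM or more in at least 3 libraries, and fitted as log2(TPM + 0.1) with limma 3.58.1 (lmFit, eBayes with trend and robust options) in R 4.3.3. The two-sided p was adjusted over all genes tested (Benjamini-Hochberg), and a gene was called below 0.05. Coverage divided by FPKM gave the aligned bases. The counting error of a TPM was not estimated, and p-values measure the spread between mice.

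The members and lists were chosen with earlier results of these data known. All members are named. Of the lists, up to 6 called mesenchymal factors and up to 4 called hedgehog or signal genes with the largest difference per contrast are named, with all neighbors within 10 kb at a mean of 0.5 TPM or more and the 3 genes with the highest r for each factor. Some genes that this rule names are not reported here. *Gli1*, *Ptch1*, *Hhip*, *Ret*, and *Th*, and the values of listed genes beside a factor they act with, were chosen after their values were seen. The nerve, smooth muscle, fibroblast, enteroendocrine, and pancreatic lists give sums of TPM. Alternatives were a pseudocount of 1, no filter, a mean TPM of at least 1, TPM or FPKM as deposited, limma without options, 1 fit over 12 libraries, the mouse as a block, each library left out and, for the interaction, genes passing the filter in both tissues. Mouse numbers pair tissues because 3 mice gave both. Residuals of the same mouse correlated at 0.034 on average (3 pairs, -0.00913 to 0.0675). The pipeline was tested on simulated data. Promoters are from RefSeq, GRCm38.p6. Coordinates of the 9 factors equal those of GENCODE M21.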

Additional observations from a re-analysis of the deposited data

How the results depend on the processing

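The calls of *Foxf1*, *Hand2*, and *Tshz3* between organs kept their direction and their side of the threshold in both genotypes under all alternatives run. Factors called numbered 6 in Ctrl (6 to 7 under the other settings, 6 with each library left out) and 7 in Y/T KO mice (6 to 7, and 5 to 7 with a library left out), and 0 between genotypes and for the interaction in every setting. Of 286 values of single factors under other settings, 281 kept direction and side, and of 372 with a library left out, 353 did, counting *Nkx2-3* and *Tbx18*, which had to keep theirs between organs. Both totals also count the genotype and interaction values, none called in the main fit (adjusted p of 0.305 or more, limma). The totals therefore do not measure how firm the calls between organs were. With the mouse as a replicate block no call of a factor changed: *Hand1* between Ctrl organs was 2.98 (adjusted p = 0.0117) and *Isl1* between Y/T KO organs -0.81 (adjusted p = 0.018, limma). The block gave 69 genes called between colon genotypes, as did 1 fit over 12 libraries without it, against 24.

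The signs that turned belong to differences near 0 or to *Hand1*, and the cause was not tested. *Foxf2* between Ctrl organs was -0.004 with TPM as deposited, *Hand2* between colon genotypes 0.027 with FPKM as deposited, and the *Hand1* interaction 0.079 with a pseudocount of 1 TPM. With a library left out, *Hand2* between colon genotypes ran from -0.139 to 0.087, *Tbx18* between bladder genotypes from -0.045 to 0.164, *Hand1* between bladder genotypes from -0.588 to 1.697, and the interaction from -0.016 to 0.213 for *Foxf1*, -0.093 to 0.166 for *Foxf2*, and -1.435 to 0.776 for *Hand1*. Counts over all genes were less stable: between colon genotypes 6 without the filter and 5 to 63 with a library left out (5 without Ctrl colon 786 or Y/T KO colon 783 or 780, 9 without Ctrl colon 787, 13 without Ctrl colon 788, 63 without Y/T KO colon 759), between bladder genotypes 11 to 51 against 55 (11 without Ctrl bladder 785 or 788, 29 without Ctrl bladder 784, 19 and 25 without Y/T KO bladder 783 and 780), and for the interaction 19 with a pseudocount of 1 TPM, 22 without the limma options, and 8 to 31 with a library left out (31 without Y/T KO colon 759, 19 without Y/T KO bladder 782), against 12. The *Hand1* difference between Ctrl organs fell to 1.601 without Ctrl bladder 788.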
